A study of Mus musculus with 8 samples.

Results

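Smooth muscle and contractile genes were followed through RNA-seq libraries of sorted stromal cells from the mouse colon. The set was fixed by name and holds 38 genes for contractile, myofibroblast and pericyte proteins, and all 38 were found among the 24346 gene symbols of each file. The libraries came from live podoplanin-positive cells without CD45, CD31 or EpCAM, taken from whole colons of 8 mice aged 12 weeks. The 4 mice labelled WT carried Il10ra flox/flox alleles without Cre, and the 4 labelled cKO carried the same alleles with Pdgfra cre. Il10ra encodes the chain of the interleukin-10 receptor that binds the cytokine, and the floxed alleles were shared by both groups. The Cre recombinase was present in cKO mice only, so that an effect of Cre and one of the lost receptor cannot be told apart. Cre followed Pdgfra, a gene of fibroblasts, and cells of the sort that never used Pdgfra would keep the receptor. Levels are FPKM, fragments scaled by transcript length and library, and can therefore be compared between genes.

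Contraction in smooth muscle rests on actin filaments pulled by myosin II, and starts when myosin light chain kinase phosphorylates the regulatory light chain. Calponin, caldesmon, tropomyosin and transgelin sit along the actin filament, alpha-actinin and filamin crosslink it, and desmin ties the filaments into the cell. Every cell has non-muscle versions of these proteins, and fibroblasts that gain alpha smooth muscle actin are called myofibroblasts. Serum response factor (SRF) switches on many of the genes by binding the CArG box, with myocardin as its partner in smooth muscle and MRTF-A (gene Mkl1) in most other cells. Pericytes, the contractile cells around capillaries, are known by the regulator Rgs5, the potassium channel subunits Kcnj8 and Abcc9, the receptor Notch3 and the surface proteins NG2 (Cspg4) and CD146 (Mcam).

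CArG boxes before the starts of the genes are shown because the set is the textbook group of SRF targets. RefSeq promoter windows (GRCm38.p6) were matched for 34 of the 38 genes, Mkl1 under its newer symbol Mrtfa. Tagln, Actg2, Myh11 and Myocd had no entry. In the 250 bases before a start, a full CArG box (2 C, 6 bases that are A or T, 2 G, which reads the same way on both strands) was found for 6 of the 34 genes, or 17.6%. The share over all 27025 genes of the table was 1.62%. With at most 1 mismatch the shares were 47.1% of the 34 genes and 21.1% of all genes. A match is a description of these letters and not evidence of binding. Acta2 had 2 boxes with 1 mismatch each and no full box in this window. The starts are those of the RefSeq windows and can differ from the gene ends of GENCODE M21, used for gene positions below. For Acta2, Actc1 and Myl6 the boxes shown lie inside the gene as GENCODE M21 gives it. Below, the box is in capitals, and each line runs 5′ to 3′ on the strand of the gene, in GRCm38.p6 coordinates. The first lines are the actins, followed by a calponin, the myosin light chains and SRF itself.

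Acta2, chr19:34255423-34255482, minus strand, box starting 84 bases before the start: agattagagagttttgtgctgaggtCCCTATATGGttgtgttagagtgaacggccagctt
Acta2, chr19:34255374-34255432, minus strand, box starting 34 bases before the start: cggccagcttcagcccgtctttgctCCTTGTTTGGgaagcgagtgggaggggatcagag
Acta1, chr8:123894814-123894873, minus strand, box starting 73 bases before the start: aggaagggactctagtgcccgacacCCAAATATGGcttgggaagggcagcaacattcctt
Actc1, chr2:114052888-114052947, minus strand, box starting 47 bases before the start: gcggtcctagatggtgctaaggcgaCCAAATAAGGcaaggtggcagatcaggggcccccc
Cnn2, chr10:79988519-79988578, plus strand, box starting 56 bases before the start: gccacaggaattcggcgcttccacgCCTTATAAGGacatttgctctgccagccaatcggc
Myl9, chr2:156775278-156775337, plus strand, box starting 161 bases before the start: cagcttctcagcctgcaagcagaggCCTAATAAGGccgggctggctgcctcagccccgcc
Myl6, chr10:128493025-128493084, minus strand, box starting 50 bases before the start: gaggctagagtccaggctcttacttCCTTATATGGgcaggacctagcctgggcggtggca
Srf, chr17:46556210-46556269, minus strand, box starting 82 bases before the start: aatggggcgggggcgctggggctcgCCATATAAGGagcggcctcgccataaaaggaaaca
Srf, chr17:46556190-46556249, minus strand, box starting 62 bases before the start: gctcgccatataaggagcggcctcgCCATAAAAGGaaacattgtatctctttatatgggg

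The genes with a full box spanned a wide range of levels. Myl6 had a mean of 571 FPKM over the 8 libraries, Myl9 128, Cnn2 63.5, Srf 6.75, Acta1 1.99 and Actc1 0.110.

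Relative depth, read from the whole-number steps of low values, ran from 0.849 to 1.07 between libraries, and 15815 to 16323 genes were above 0. Correlations of log2 values between libraries were 0.965 to 0.989. Il10ra was at 0.403 to 0.842 FPKM in WT and 0.273 to 0.636 in cKO, with a two-sided exact permutation p of 0.4 over 4 against 4 libraries. The value sums the whole gene and does not check the deletion. Epithelial transcripts stood apart in cKO replicates 1 and 2, where the 18 markers summed to 1337 and 578 FPKM, whereas cKO replicates 4 and 3 were at 56.7 and 147 and the WT libraries spanned 68.8 to 149. Whether this has a part in any difference below was not tested.

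Transcripts of most widely expressed cytoskeletal genes were abundant in the sorted cells, although Myh9, Myh10 and Actn1 were at 18.2, 11.8 and 3.34 FPKM. The 11 genes of the smooth muscle subset were led by Smtn at 45.4 FPKM, Acta2 at 26.9 and Tagln at 20.4. At their low end Cnn1 was at 1.04, and Lmod1 and Myocd were under 1. Vim, the intermediate filament of mesenchymal cells, had a mean of 712 FPKM and ranked 89th of the 24346 genes. Des, the muscle intermediate filament, had 8.03 FPKM, and Vim was above it in 8 of 8 libraries by 62.0 to 113 times. The smooth muscle heavy chain Myh11 had 1.79 FPKM, and the non-muscle chains Myh9 and Myh10 had 18.2 and 11.8. In each family a widely expressed member led. Tagln2 exceeded Tagln by 9.69 to 21.6 times, Cnn3 exceeded Cnn1 by 106 to 311 times, Actn4 exceeded Actn1 by 29.5 to 39.4 times and Flna exceeded Flnc by 6.66 to 8.92 times, each in 8 of 8 libraries. The cytoplasmic actin genes Actb and Actg1 exceeded Acta2 by 12.6 to 30.1 and by 39.8 to 111 times. Tropomyosins followed the order Tpm4, Tpm3, Tpm1, Tpm2 in 8 of 8 libraries, with means of 258, 166, 124 and 23.8 FPKM. The ratio of Tpm3 to Tpm1 was as low as 1.11 in one library, so that these neighbours lay close.

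**Figure D1:**
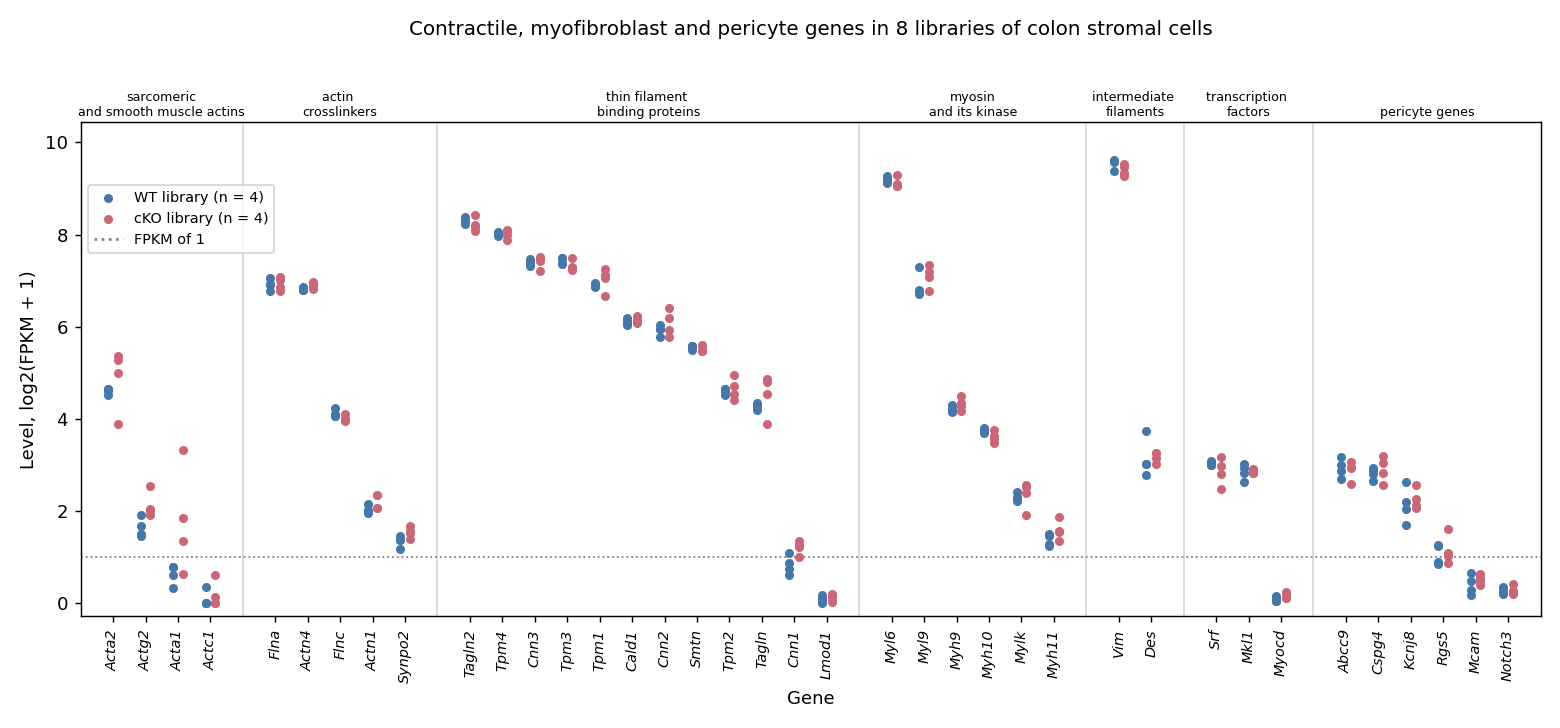
Level of each of the 38 genes as log2(FPKM + 1), ordered by mean within its role, with each point a WT (blue) or cKO (red) library, 4 per group. Vim and Myl6 lie highest, and Actc1, Lmod1, Myocd, Notch3 and Mcam lie below an FPKM of 1 (dotted line) in all 8 libraries.

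Lmod1 and Myocd, both restricted to muscle, were almost absent. Lmod1, a leiomodin that starts actin filaments in smooth muscle, was at 0, 0.117, 0.0284 and 0.0708 FPKM in the 4 WT libraries, in order of replicate number here and below, and 0.0966, 0.0282, 0.133 and 0.0143 in the 4 cKO libraries. These values stood for 0, 7, 2 and 5 fragments in WT and 7, 2, 10 and 1 in cKO, taken as the smallest whole numbers in the ratio of the depth-scaled values. The library at 0 allows up to 3 fragments, for counting error only. Myocd, the myocardin gene, was at 0.102, 0.0262, 0.0668 and 0.0333 FPKM in WT and 0.108, 0.0664, 0.172 and 0.0675 in cKO. By the same reading this was 18, 4, 12 and 6 fragments in WT and 20, 12, 33 and 12 in cKO, with the groups overlapping. Cardiac actin, Actc1, was listed at 0 in 5 of 8 libraries and reached 0.268 in WT replicate 4, 0.521 in cKO replicate 1 and 0.0903 in cKO replicate 4, or 3, 6 and 1 fragments. These 3 genes fell under the minimum level for the test described below and were not tested.

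Markers of other cell types set these levels in context. The 13 smooth muscle markers summed to 47.9 to 59.1 FPKM in WT and 43.2 to 77.7 in cKO libraries, most of it from Acta2, Des and the calcium store protein gene Casq2 (6.93 ± 1.33 in WT and 7.71 ± 2.61 in cKO, mean ± SD, n = 4 each), and 4 of the 13 had a mean under 1. The 14 pericyte markers summed to 69.5 to 78.6 in WT and 62.8 to 92.5 in cKO, led by Steap4 (46.01 ± 3.57 in WT and 44.1 ± 10.6 in cKO), Abcc9 and Cspg4, with 7 of 14 under a mean of 1. The 13 fibroblast markers, led by Dcn, Col3a1 and Col1a1 (7077, 5416 and 2634 FPKM on average), summed to 23687 to 24690 in WT and 21608 to 25749 in cKO. Of 19 skeletal and cardiac muscle markers 16 had a mean under 1, and 4 of them (Myh4, Myh2, Myh6, Myh7) were listed at 0 in all 8 libraries, while the troponin gene Tnni2, Actn3 and the troponin gene Tnnt3 led with 7.19, 2.70 and 1.95 FPKM. All 9 markers of enteric glia had a mean under 1. Interstitial cell of Cajal markers summed to 64.5 to 98.5 in WT and 74.7 to 100.4 in cKO, nearly all from the connexin gene Gja1 (78.1 FPKM), ahead of Etv1 and Ano1. Lymphatic endothelial markers summed to 91.7 to 100.2 in WT and 93.55 to 105.5 in cKO, nearly all from Pdpn, the sort marker, ahead of Ccl21a and Lyve1. Blood endothelial markers summed to 6.50 to 10.3 in WT and 10.8 to 27.1 in cKO, led by Plvap, Kdr and Esam, so that the groups did not overlap, with the highest value in cKO replicate 1. Mesothelial markers (Krt19, Nkain4 and Wt1 highest) summed to 26.3 to 34.7 in WT and 27.3 to 127 in cKO, and leukocyte markers (Jchain, Lyz2 and Cd52 highest) to 125 to 189 and 118 to 349, both highest in cKO replicate 1. The epithelial list was led by Guca2a, Car1 and Krt8. The part of these cells in the differences given below was not tested. In bulk libraries fewer cells of a type and less RNA per cell cannot be told apart.

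**Figure D2:**
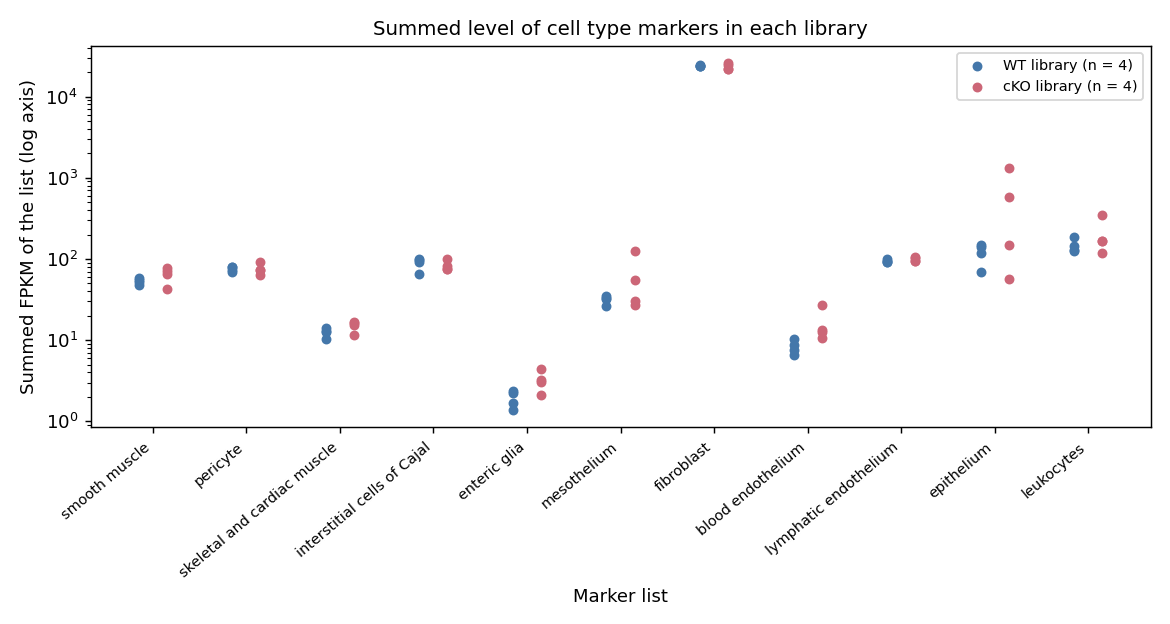
Summed FPKM (log axis) of each marker list in each library, WT in blue and cKO in red, 4 per group. The fibroblast sums lie far above the other lists in all 8 libraries, and the epithelial sum reaches 1337 in cKO replicate 1.

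Of the 38 genes, 33 had a mean FPKM of at least 1 and were tested with limma on log2(FPKM + 1) over 11506 genes, and none of the 33 was called changed at an adjusted p under 0.05. Over all genes 1 was called, or 0.00869%, the microRNA gene Mir5098, named after its values were seen and listed at 0 in 4 of 4 cKO libraries. At an unadjusted p under 0.05, limma gave 3 of the 33 higher in cKO (Actg2, Cnn1 and Acta1), where 2.37% of all genes passed in that direction, and 0 lower, where 3.03% passed. These counts moved when single libraries were left out. They were 2 higher and 3 lower without cKO replicate 1, 5 and 1 without cKO replicate 2, and 2 and 1 without cKO replicate 3. In each of these refits 32 genes were tested. Acta1 fell under the minimum level without cKO replicate 1, and Cnn1 did without cKO replicate 2 or 3. Without WT replicates 1, 2, 3 and 4 in turn the counts were 2 and 0, 1 and 0, 4 and 0, and 3 and 1. With a minimum FPKM of 5, 24 genes were tested and the counts were 0 and 0. Actg2, Cnn1 and Acta1 lay under that minimum, so this refit did not test them again. In 1 of the 33, Actg2, all cKO libraries lay above all WT libraries (1.36% of all genes), and in 0 did all lie below (1.90%). The cKO mean of log2(FPKM + 1) was higher for 23 of 33, against 47.4% of all genes, and the median log2 difference was 0.05, against -0.01 over all genes. For the 9 tested genes of the smooth muscle subset (Acta2, Actg2, Tagln, Myh11, Cnn1, Des, Smtn, Synpo2 and Mylk) the median was 0.20 with 8 higher on this scale, among them Des, whose mean FPKM was lower in cKO (7.99 against 8.07). For the 12 broadly expressed genes (Actn1, Actn4, Tagln2, Myh9, Myh10, Myl6, Cnn2, Cnn3, Tpm3, Tpm4, Vim and Flna) it was 0.00 with 6 higher. None of these counts or medians was tested as a set.

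**Figure D3:**
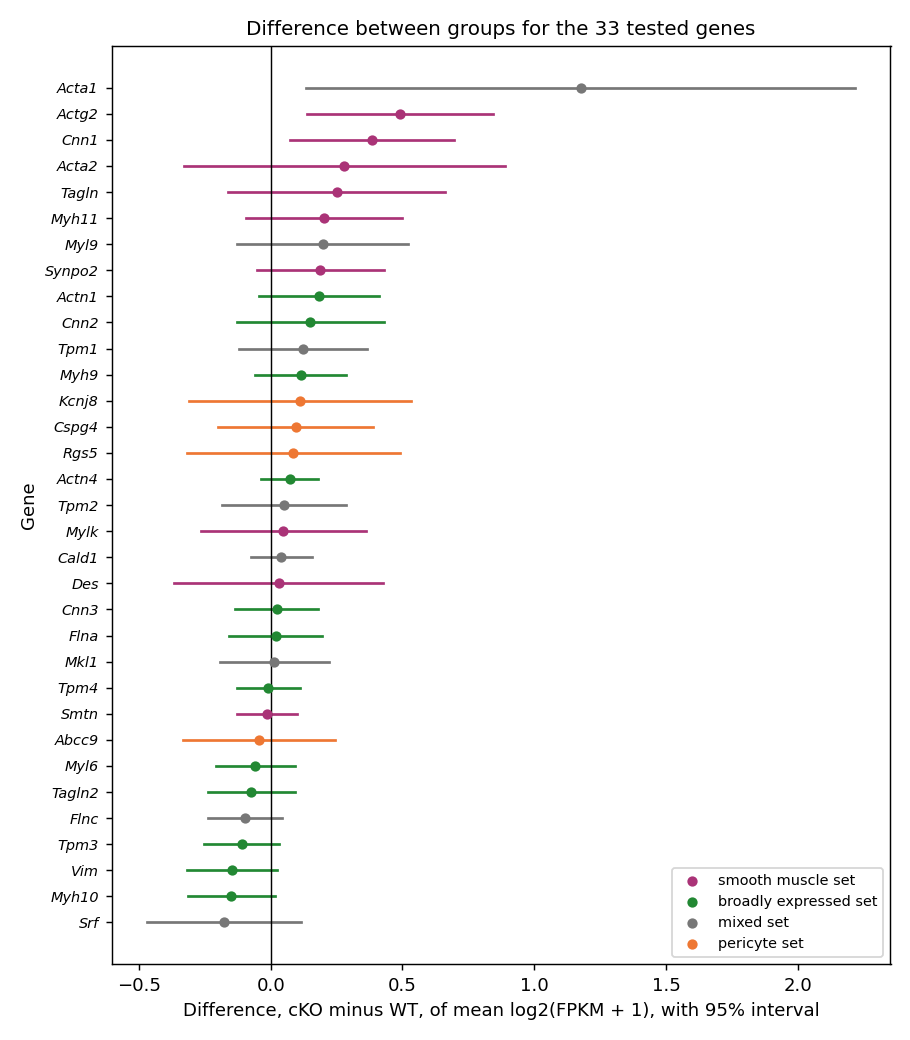
Difference between the group means (cKO minus WT, log2(FPKM + 1) scale) of the 33 tested genes, with 95% intervals from limma, coloured by subset. The intervals of Acta1, Actg2 and Cnn1 lie above 0 before adjustment over all genes.

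Among the actins, enteric smooth muscle actin was higher in each cKO library than in any WT library without passing the adjusted test, while alpha smooth muscle actin spread widely among cKO libraries. Actg2 (chromosome 6, 83512905 to 83536265, minus strand, mm10), the gamma actin of visceral smooth muscle, was at 2.196, 1.74, 2.72 and 1.81 FPKM in the 4 WT libraries, in order of replicate number, and 4.82, 3.08, 2.76 and 2.99 in the 4 cKO libraries. The lowest cKO value lay just above the highest WT value, and cKO replicate 1 lay far above the rest. The log2 difference was 0.49 (SE 0.16, limma adjusted p = 0.897), with higher values than all WT in 4 of 4 cKO libraries. Acta2 (chromosome 19, 34241090 to 34255590, minus strand), the alpha actin of smooth muscle and myofibroblasts, was at 23.8, 24.1, 23.2 and 21.9 FPKM in WT and 40.1, 13.7, 30.9 and 37.8 in cKO. The WT libraries were within a narrow range, 3 cKO libraries lay above all of them, and cKO replicate 2 lay below all of them. The difference was 0.28 (SE 0.27, limma adjusted p = 0.940), with a 95% interval of -0.33 to 0.89. Without cKO replicate 2 it was 0.61, with a limma adjusted p of 0.315, and without cKO replicates 1 and 4 in turn it was 0.12 and 0.15. Acta1 (chromosome 8, 123891769 to 123894751, minus strand), skeletal muscle actin, was at 0.509, 0.244, 0.706 and 0.704 FPKM in WT and 9.04, 2.60, 1.55 and 0.545 in cKO. It was highest in cKO replicates 1 and 2, the same libraries in which the epithelial markers summed to 1337 and 578 FPKM, and cKO replicate 4 lay within the WT range. The difference was 1.18 (SE 0.47, limma adjusted p = 0.897). The skeletal and cardiac muscle markers summed to 12.8, 10.3, 12.4 and 13.99 FPKM in WT and 16.8, 16.4, 15.5 and 11.7 in cKO. In cKO replicate 3, where Acta1 lay above all WT libraries, the epithelial sum of 147 FPKM was within the WT range. Whether cells of either list have a part in the Acta1 values was not tested. Of the 50-base stretches of Acta1 transcripts 2.02% also occur in another gene, of Acta2 0.326% and of Actg2 none. Only exact matches were counted. Whether fragments of other actin genes that differ by a few bases were assigned to these genes was not tested.

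**Figure D4:**
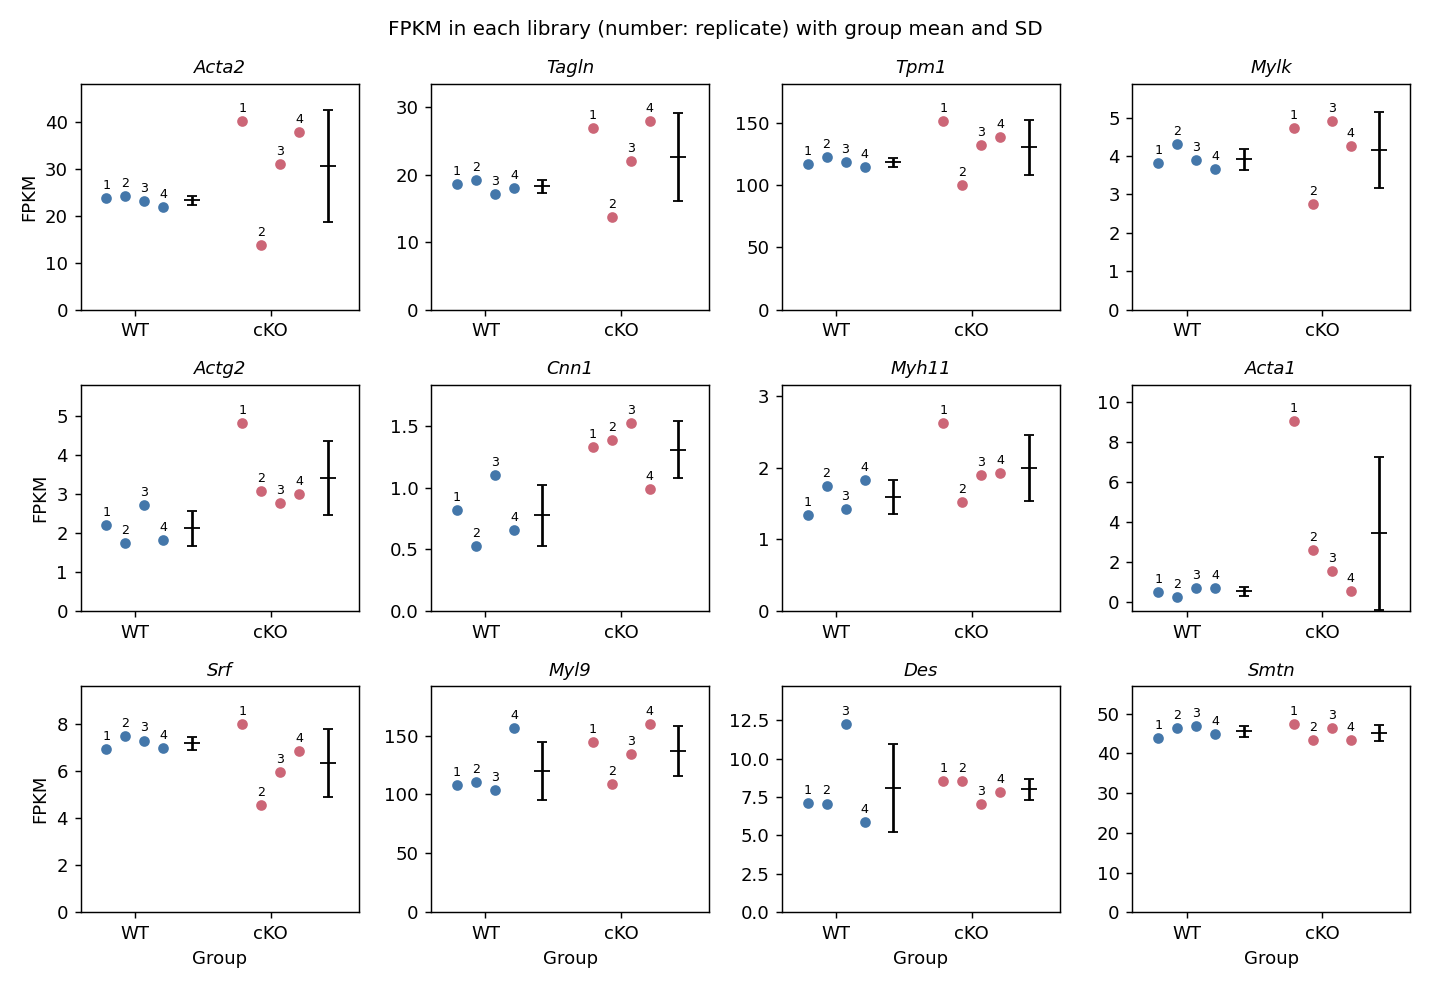
FPKM of 12 genes in each library (numbers are replicates), with the mean and SD of each group in black, n = 4 each. Acta2, Tagln, Tpm1 and Mylk are lowest in cKO replicate 2, and in Actg2 the 4 cKO values lie above the 4 WT values.

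Among the genes of proteins bound along the thin filament, Tagln varied between cKO libraries as Acta2 did. Tagln (chromosome 9, 45929619 to 45936058, minus strand), transgelin or SM22, an actin-bundling protein of smooth muscle and myofibroblasts, was at 18.7, 19.2, 17.1 and 17.96 FPKM in WT and 26.9, 13.7, 22.1 and 27.9 in cKO. As for Acta2, cKO replicates 1, 3 and 4 lay above all WT libraries and cKO replicate 2 below. The difference was 0.25 (SE 0.18, limma adjusted p = 0.929). Leaving out cKO replicate 2 gave 0.46, whereas leaving out replicate 1 or 4 of that group gave 0.155 or 0.138. An antisense gene of the annotation, Gm48529, covers 62.4% of the exonic bases of Tagln. The library kit does not mark strand, so reads of this pair cannot be told apart. Cnn1 (chromosome 9, 22099216 to 22109630, plus strand), the calponin of differentiated smooth muscle, was at 0.821, 0.525, 1.102 and 0.653 FPKM in WT and 1.33, 1.39, 1.53 and 0.992 in cKO. This stood for 27, 15, 37 and 22 fragments in WT and 46, 47, 55 and 33 in cKO libraries. Only cKO replicate 4 lay within the WT range, and the difference was 0.38 (SE 0.14, limma adjusted p = 0.897). The non-muscle calponin genes were far more abundant, with Cnn2 at 59.8 ± 4.63 in WT and 67.3 ± 13.3 in cKO and Cnn3 at 167 ± 7.91 in WT and 169.8 ± 15.6 in cKO (SD, n = 4 each). Smtn, smoothelin, which binds actin filaments in contractile smooth muscle, was at 44.00, 46.4, 46.9 and 45.01 FPKM in WT and 47.4, 43.4, 46.5 and 43.5 in cKO, with overlapping groups and a difference of -0.01 (SE 0.05, limma adjusted p = 0.990). Its 95% interval ran from -0.13 to 0.10. Antisense genes also cover 16.3% of the exonic bases of Smtn and 17.7% of those of Cnn3, and 14.1% of the 50-base stretches of Cnn3 occur in other genes.

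Tropomyosins lie in the groove of the actin filament and govern access of myosin. Tpm1 was at 117, 123, 119 and 115 FPKM in WT and 151, 99.9, 132 and 138 in cKO, again with cKO replicates 1, 3 and 4 above and cKO replicate 2 below all WT libraries, and a difference of 0.12 (SE 0.11, limma adjusted p = 0.931). Without cKO replicate 2 it was 0.25, and without cKO replicate 1 it was 0.05. Tpm2 was at 23.2 ± 1.05 in WT and 24.3 ± 4.21 in cKO and Tpm4 at 259 ± 6.92 in WT and 257 ± 15.8 in cKO. Tpm3 was at 179.8, 179, 164 and 165 FPKM in WT and 178, 150.02, 157 and 153 in cKO, where 3 cKO libraries lay below all WT libraries and cKO replicate 1 among them. Its difference was -0.11 (SE 0.06, limma adjusted p = 0.897), and 40.03% of its 50-base stretches also occur in the retrogene Tpm3-rs7, which makes its value uncertain. Cald1, caldesmon, which restrains actin-activated myosin, was at 67.8 ± 2.99 in WT and 69.7 ± 3.12 in cKO, and Tagln2, the widely expressed transgelin, at 314 ± 14.9 in WT and 299 ± 31.02 in cKO. For Tpm4 12.1% of the 50-base stretches occur in another gene. Cald1 and Tagln2 overlapped between groups, with adjusted p in limma of 0.965 and 0.947.

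Myosin II genes showed small differences in both directions. Myh11 (chromosome 16, 14194535 to 14291372, minus strand), the heavy chain that defines smooth muscle, was at 1.34, 1.75, 1.43 and 1.83 FPKM in WT and 2.63, 1.52, 1.89 and 1.93 in cKO. Its 3 highest values were all cKO, cKO replicate 2 lay among the WT libraries, and the difference was 0.20 (SE 0.13, limma adjusted p = 0.920), or 0.11 without cKO replicate 1. Myh10, non-muscle heavy chain IIB, was at 12.7, 12.5, 11.8 and 12.9 FPKM in WT and 10.8, 10, 12.6 and 11.4 in cKO, with 3 cKO libraries below all WT libraries and a difference of -0.15 (SE 0.07, limma adjusted p = 0.897). Myh9, non-muscle heavy chain IIA, was at 17.4 ± 0.948 in WT and 19.00 ± 1.93 in cKO (SD, n = 4 each). The regulatory light chain gene Myl9 was at 108, 110.5, 104 and 156 FPKM in WT and 144, 109, 134 and 159.8 in cKO. WT replicate 4 stood far above the other 3 WT libraries and close to the highest cKO library, and the difference was 0.20 (SE 0.14, limma adjusted p = 0.929), or 0.33 without WT replicate 4. Leaving out cKO replicate 2 or 4 gave 0.30 or 0.12. Myl6, the essential light chain of non-muscle and smooth muscle myosin, was at 582 ± 30.99 in WT and 559 ± 46.8 in cKO, and 16.7% of its 50-base stretches also occur in other genes. Mylk, myosin light chain kinase, was at 3.82, 4.30, 3.89 and 3.65 FPKM in WT and 4.73, 2.74, 4.90 and 4.25 in cKO. Its lowest value was that of cKO replicate 2 and its highest that of cKO replicate 3, and the difference was 0.05 (SE 0.14, limma adjusted p = 0.985).

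Among the crosslinkers no gene separated the groups. Synpo2, synaptopodin-2 or myopodin, an actin-bundling protein of muscle, was at 1.26, 1.73, 1.58 and 1.57 FPKM in WT and 1.62, 1.93, 2.16 and 1.85 in cKO. Here cKO replicate 1 fell within the WT range and the other 3 cKO libraries above it, with a difference of 0.19 (SE 0.11, limma adjusted p = 0.897). Actn1, a non-muscle alpha-actinin, was at 2.90, 3.04, 3.40 and 2.88 FPKM in WT and 4.10, 3.18, 3.14 and 4.05 in cKO, with cKO replicates 1 and 4 highest and a difference of 0.18 (SE 0.10, limma adjusted p = 0.897). Actn4, the other non-muscle alpha-actinin, was at 112 ± 2.72 in WT and 118 ± 5.50 in cKO. Flnc, the filamin of striated muscle, was at 15.5, 15.7, 16.03 and 17.6 FPKM in WT and 14.4, 16.2, 14.8 and 14.9 in cKO, lowest in cKO replicates 1, 3 and 4, with a difference of -0.10 (SE 0.06, limma adjusted p = 0.920). Flna, the filamin of most cells, was at 119.7 ± 9.23 in WT and 121 ± 11.5 in cKO.

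The intermediate filament genes overlapped between groups. Des was at 7.11, 7.08, 12.3 and 5.85 FPKM in WT and 8.52, 8.55, 7.05 and 7.83 in cKO, and its highest and lowest values were both WT libraries, with a difference of 0.03 (SE 0.18, limma adjusted p = 0.994) on the log2 scale. Vim was at 779, 791, 759.5 and 663 FPKM in WT and 647, 739, 706 and 613 in cKO. Its 2 lowest values were cKO replicates 4 and 1, and the difference was -0.15 (SE 0.08, limma adjusted p = 0.897).

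Between the tested transcription factor genes, Srf and Mkl1, Srf spread more among the cKO libraries. Srf was at 6.92, 7.51, 7.29 and 6.96 FPKM in WT and 7.996, 4.56, 5.94 and 6.85 in cKO. The WT values lay close together, cKO replicate 1 was highest, and cKO replicate 2 was lowest, as for Acta2 and Tagln. The difference was -0.18 (SE 0.13, limma adjusted p = 0.929), with a 95% interval of -0.47 to 0.12, and it was -0.05 when cKO replicate 2 was left out and -0.28 when cKO replicate 1 was. Mkl1, the MRTF-A gene, was at 6.22 ± 0.867 in WT and 6.25 ± 0.204 in cKO (SD, n = 4 each; limma adjusted p = 0.994) and thus far above its relative Myocd given before.

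Pericyte genes were low and did not separate the groups. Cspg4 was at 5.94, 6.33, 6.58 and 5.23 FPKM in WT and 4.91, 6.06, 7.16 and 8.16 in cKO, with the lowest and the highest value both in cKO libraries. Abcc9 was at 7.92, 5.40, 6.26 and 7.01 FPKM in WT and 4.97, 6.74, 6.58 and 7.38 in cKO, and Kcnj8, whose protein forms a channel with that of Abcc9, at 5.20, 3.56, 3.10 and 2.24 in WT and 4.86, 3.16, 3.80 and 3.38 in cKO. Both overlapped over most of their range. Rgs5, a brake on G protein signalling and the usual pericyte marker, was at 1.39, 0.856, 1.36 and 0.791 FPKM in WT and 1.12, 0.821, 1.02 and 2.04 in cKO, or 41, 22, 41 and 24 fragments and 35, 25, 33 and 61 fragments. The highest value was that of cKO replicate 4, the library that was also highest for Cspg4 and Notch3. The other pericyte genes were highest in WT libraries, Kcnj8 and Abcc9 in WT replicate 1 and Mcam in WT replicate 2. Notch3 was at 0.260, 0.145, 0.185 and 0.164 FPKM in WT and 0.133, 0.198, 0.186 and 0.326 in cKO, and Mcam at 0.384, 0.558, 0.217 and 0.118 in WT and 0.537, 0.451, 0.387 and 0.299 in cKO, all under 1. The 4 tested pericyte genes had log2 differences from -0.05 to 0.11 with limma adjusted p of 0.969 to 0.985, and Notch3 and Mcam fell below the minimum level.

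The values spread more among the cKO libraries than among the WT libraries, a pattern described after the values were seen and not tested. Of the 33 tested genes 12 (36.4%) had their lowest value in cKO replicate 2, against 13.2% of all 11506 genes, and 13 (39.4%) had their highest value in cKO replicate 1, against 17.5% of all genes. The SD of log2 values was larger in cKO than in WT for 26 of 33, or 78.8%, against 59.5% of all genes. Acta2, Tagln and Tpm1 shared 1 arrangement, with cKO replicates 1, 3 and 4 above and cKO replicate 2 below all WT libraries, which 48 of all genes (0.417%) had. In the smooth muscle subset the median deviation from the WT mean was 0.40, -0.03, 0.27 and 0.18 in cKO replicates 1 to 4, against -0.08 to 0.05 in the WT libraries and -0.02 to 0.00 for all genes in any library. Replicate 1 of the cKO group also had the highest epithelial, mesothelial, leukocyte and blood endothelial sums (1337, 127, 349 and 27.1 FPKM), and their part was not tested. Epithelial sums were above the WT range in cKO replicates 1 and 2 (1337 and 578 FPKM). These libraries also differed in mesothelial (127 and 55.8), leukocyte (349 and 166) and blood endothelial sums (27.1 and 10.8). Whether any of these sums has a part in the spread of Acta2, at 40.1 and 13.7 FPKM in these libraries, was not tested.

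**Figure D5:**
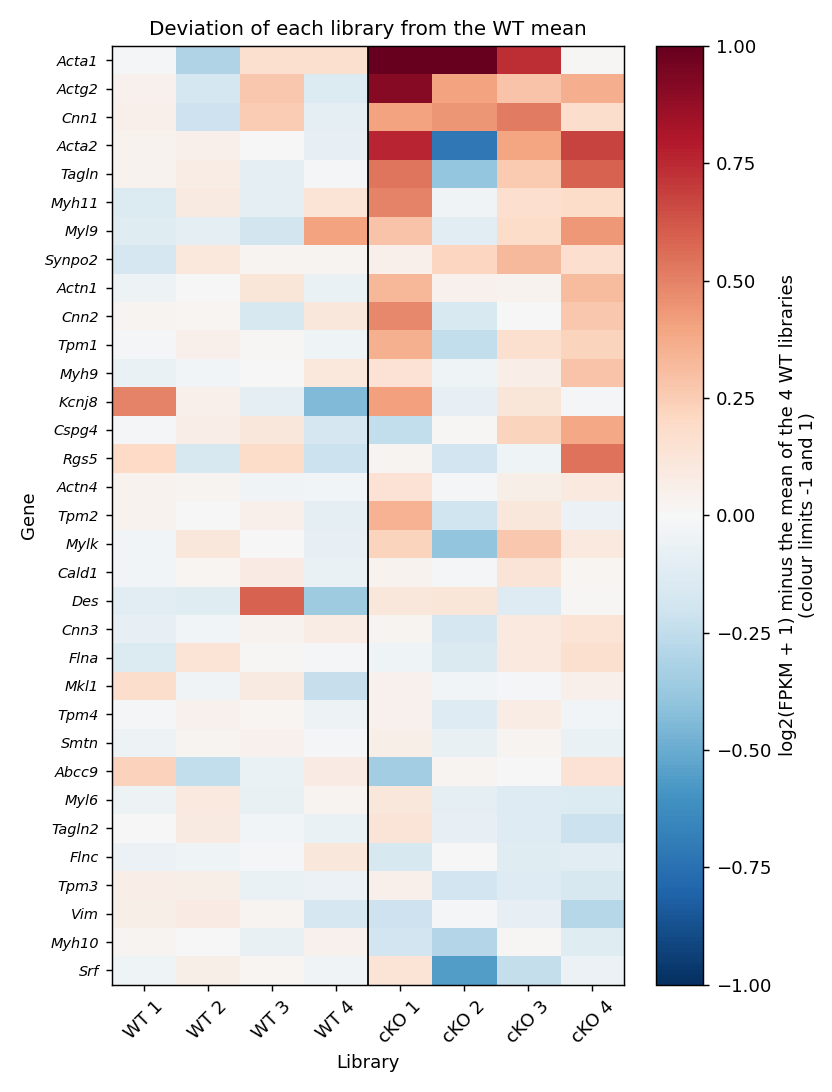
Deviation of each library (columns) from the mean of the 4 WT libraries on the log2(FPKM + 1) scale for the 33 tested genes (rows, ordered by group difference), with colours limited to -1 and 1. The cKO replicate 2 column is blue for Acta2, Tagln, Mylk and Srf, where cKO replicate 1 is red.

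Ratios within a library did not separate the groups. They were taken from log2(FPKM + 1) values, so the added 1 makes them depend on library scaling and shifts ratios of low genes. For Myh11 to Myh9 in WT replicate 1 the ratio of FPKM itself was 0.0810, and the log2 ratio used here was -2.91. With 0.1 added in place of 1, the group difference of that log2 ratio was 0.18 in place of 0.09 (exact permutation p = 0.286). The log2 ratio of Myh11 to Myh9, smooth against non-muscle heavy chain, was -2.84 ± 0.0963 in WT and -2.75 ± 0.192 in cKO (SD over 4 libraries a group), and a two-sided exact permutation test gave p = 0.543, or 0.943 adjusted over 4 ratios. That of Acta2 to Actb was -4.03 ± 0.158 and -3.98 ± 0.559 (exact permutation p = 0.943, adjusted 0.943), with cKO replicate 2 at -4.82 and the other cKO libraries at -3.76 to -3.62. Without cKO replicate 2 the difference of this ratio was 0.33 in place of 0.05. The exact permutation p was then 0.0286, the smallest that 4 against 3 libraries allow. This refit is shown after the values were seen, and no other library left out gave an exact permutation p under 0.05. Leaving out WT replicate 4 or cKO replicate 1, 3 or 4 reversed the sign (-0.03, -0.07, -0.02 and -0.03). Leaving out WT replicate 1, 2 or 3 gave 0.07, 0.09 and 0.07. Actb itself had a higher mean in cKO (log2 difference 0.23, limma adjusted p = 0.897), so this ratio also moves with Actb. For Actg2 to Acta2 the ratio was -2.97 ± 0.207 and -2.76 ± 0.634 (exact permutation p = 0.743, adjusted 0.943), and for Rgs5 to Acta2 -3.54 ± 0.204 and -3.74 ± 0.539 (exact permutation p = 0.600, adjusted 0.943).

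Other genes of the contractile apparatus were followed as a list of 79, covering myosin phosphatase, calcium handling, cell-matrix anchors and receptors. Of its 58 tested genes 30 had a higher cKO mean, against 47.4% of all genes, and the median log2 difference was 0.01. Limma called 0, where 0.00869% of all genes were called. At an unadjusted p under 0.05, limma gave 1 higher and 2 lower, where 2.37% and 3.03% of all genes passed. Actb, cytoplasmic beta actin, was at 396 ± 28.5 in WT and 466 ± 50.04 in cKO FPKM (SD, n = 4 each), a difference of 0.23 (SE 0.08, limma adjusted p = 0.897). The chaperone gene Hspb8 was at 145 ± 4.45 in WT and 132 ± 7.67 in cKO, a difference of -0.13 (SE 0.05, limma adjusted p = 0.897), and Zyx, zyxin of focal adhesions, at 180.2 ± 5.23 in WT and 168 ± 4.13 in cKO, a difference of -0.10 (SE 0.04, limma adjusted p = 0.897). Pdlim3, an actinin-associated LIM protein, was at 26.8 ± 1.71 in WT and 33.1 ± 7.02 in cKO. The most abundant genes of the list beside Actb were Actg1 (1672 ± 76.97 in WT and 1641 ± 201 in cKO) and Fhl1 (505 ± 38.1 in WT and 521 ± 94.8 in cKO).

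A list of 32 genes outside the set held regulators and targets of MRTF and SRF. It also held Notch pathway genes (Hey1, Heyl, Hes1 and Jag1) and other transcription factor genes such as Ebf1 and Foxf1. Its counts are therefore not a measure of MRTF and SRF activity. Of 27 tested, 16 had a higher cKO mean, against 47.4% of all genes, and the median log2 difference was 0.02. Limma called 0, with 0 in either direction at an unadjusted p under 0.05 (2.37% higher and 3.03% lower over all genes). Cyr61, a target of SRF and YAP, was at 1706 ± 57.2 in WT and 1565 ± 122 in cKO FPKM (SD, n = 4 each), a difference of -0.13 (SE 0.06, limma adjusted p = 0.897). Hey1, a Notch target, was at 2.63 ± 0.344 in WT and 3.10 ± 0.260 in cKO, the transcription factor gene Ebf1 at 64.9 ± 3.47 in WT and 60.3 ± 3.72 in cKO, Klf2 at 187 ± 15.2 in WT and 202 ± 17.4 in cKO and the SRF partner Elk4 at 11.9 ± 0.482 in WT and 11.2 ± 0.335 in cKO. The immediate-early genes Fos and Egr1, which are also SRF targets, were the most abundant, with Fos at 3129 ± 150.1 in WT and 3269.6 ± 198 in cKO and Egr1 at 2514 ± 129 in WT and 2484 ± 55.6 in cKO. Cyr61 and these 2 lay above all 38 genes of the contractile set in mean FPKM.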

How the data were processed

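RNA-seq of full-length SMART-Seq cDNA was made from sorted colon stromal cells of 8 mice, 4 WT and 4 cKO, per the labels' protocols. The authors deposited 1 table of FPKM values per library. Cufflinks 2.2.1, Cuffdiff, Bowtie2 2.3.5.1, TopHat2 2.1.1 and SAMtools 0.1.18 with the build mm10 are listed, without roles, in the submitters' processing notes. Which annotation was used, and any scaling between libraries, is not given in the sources used here. Values are not counts, and total depth was not estimated here. Relative depth came from whole-number steps in ratios of genes with a mean under 0.3 FPKM, of which 57.9% to 65.3% fell on such steps within 0.002 log2 units.

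Genes averaging 1 FPKM or more over the 8 libraries were tested as log2(FPKM + 1) with limma 3.58.1 in R 4.3.3 (eBayes with trend, 2 groups, Benjamini-Hochberg over 11506 genes, threshold 0.05), a procedure tested on simulated data. Fold changes on this scale understate the change of low genes. Single ratios were tested by exact permutation over 70 arrangements, with a smallest two-sided p of 0.0286. The design text gives as many mice as libraries, so each library was taken as 1 mouse. Positions come from GENCODE M21 on the same build, and sequences from RefSeq. Python 3.11.15 with numpy 2.4.6 and pandas 2.3.3 was used for tables.

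The 38 genes and all lists were chosen with earlier results of these data known. Genes shown in every library were the smooth muscle and pericyte subsets and those among the 10 smallest p, with Tpm1, Myl9 and Srf added after their values were seen. From the other lists the 5 smallest p and the 3 highest levels were named, and from each marker list the 3 highest and those at 0 throughout; some genes under these rules are not reported here. Alternatives were pseudocount 0.1, no filter or a minimum of 5, quantile and median-of-ratios scaling, no trend, the replicate number as a block, and each library left out.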

Additional observations from a re-analysis of the deposited data

Results flagged for a closer look

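Of 84 groups of 4 values checked (38 genes and 4 ratios in each genotype), 4 held a library whose gap to its nearest neighbour exceeded Dixon's 95% limit, and chance alone marks about 1 in 20 groups. Actg2 in cKO replicate 1 was at 4.82 FPKM, with the other cKO libraries at 2.76 to 3.08. Myl9 in WT replicate 4 was at 156 FPKM, with the other WT libraries at 104 to 110.5. The log2 ratio of Acta2 to Actb in cKO replicate 2 was -4.82, with the other cKO libraries at -3.76 to -3.62. Actc1 in WT replicate 4 was at 0.268 FPKM, or at least 3 fragments, with the other WT libraries listed at 0.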

How the results depend on the processing

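No contractile gene was called under any of the 15 alternatives, where the adjusted p of limma was 0.315 at the lowest (Acta2 without cKO replicate 2). The number of all genes called was 2 with no filter and 1 to 4 over the libraries left out in turn (3 without WT replicate 3, 4 without cKO replicate 1, 2 without cKO replicate 2), in place of 1. Contractile genes with a higher cKO mean numbered 14 of 24 with a minimum FPKM of 5, in place of 23 of 33. Of 483 refits of the 33 tested genes 456 kept their direction, and 13 genes reversed in at least 1 refit (Smtn, Des, Cnn3, Flna, Tpm4, Mylk, Abcc9, Mkl1, Cspg4, Kcnj8, Rgs5, Myl6 and Tpm2). The 456 include refits with no filter, a minimum of 5, no trend or the replicate block. Those settings cannot alter the difference of a gene, so their direction was fixed in advance. With 1 library left out, the difference of Mylk ran from -0.0242 to 0.195, of Des from -0.0892 to 0.228 and of Smtn from -0.0362 to 0.00586, and Smtn was at 0.00542 with quantile normalization. The ratio of Acta2 to Actb differed by -0.0686 to 0.329 and that of Actg2 to Acta2 by -0.0921 to 0.384. Same-numbered libraries deviated together only weakly (correlations 0.02 to 0.09), so the numbers were not taken to pair mice. With the replicate block limma called 1 gene of all and 0 contractile genes. Actc1, Lmod1, Myocd, Notch3 and Mcam fell below the minimum level, which is set in FPKM and so depends on transcript length. Depth limits Actc1 and Lmod1 most, at 0 to 6 and 0 to 10 fragments as the smallest whole numbers. By the same reading Notch3 had 18 to 47 and Mcam 6 to 28, and the tested Cnn1 had 15 to 55.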
